A study of Mus musculus with 21 samples.

Results

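Klf2, Klf4, Nos3, Thbd, Edn1, Ednrb, Ace and S1pr1 were taken by gene symbol from a table of TPM values, 8 genes of the 45706 listed, and all 8 passed the filter on low values. TPM divides reads by transcript length and scales each library to the same sum, so levels of different genes can be set side by side. The table holds bulk RNA sequencing of CD31+ cells sorted from E0771.lmb tumours, a mouse mammary carcinoma line, grown in adult mice that were wild-type (WT) or Shb iECKO (KO). The KO mice carried Shb flox/flox and Cdh5-CreERt2, a Cre recombinase that the endothelial Cdh5 promoter drives and tamoxifen activates. Shb encodes an adaptor protein that acts downstream of tyrosine kinase receptors. Tumours were grown after tamoxifen and taken on day 14 to 16, and the protocol does not say whether the WT mice carried a Cre allele. It also names a blood-cell line, Shb ICKO with Vav1-cre, and a magnetic isolation of CD45+ cells ahead of the CD31 sort, and no sample is assigned to that line. There were 11 WT libraries from 9 tumours and 10 KO libraries from 8 tumours in 4 experiments. Column headers placed 3 WT and 2 KO libraries in experiment 1, and 3 and 4 in experiment 2. They placed 2 and 2 in experiment 3, and 3 and 2 in experiment 4. The sample titles instead list KO replicates 1 to 3 both for experiment 2 and for experiment 4. A KO library counted under experiment 2 here may thus belong to experiment 4.

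Laminar shear stress on the vessel wall is sensed at the endothelial surface and passes through the kinases MEKK3, MEK5 and ERK5 to MEF2 factors, which switch on the transcription factors KLF2 and KLF4. In flow-exposed endothelium these factors raise Nos3 and Thbd and hold down Edn1, a programme known for keeping vessels dilated, non-clotting and quiet. Tumour vessels are tortuous and leaky, and blood flow through them is uneven.

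The members lie on 8 different mouse chromosomes, and each is annotated as protein-coding in GENCODE on GRCm38. Klf2 (ENSMUSG00000055148) spans 72319033 to 72321656 on the plus strand of chromosome 8, and Klf4 (ENSMUSG00000003032) spans 55527143 to 55532466 on the minus strand of chromosome 4. Nos3 (ENSMUSG00000028978) spans 24364810 to 24384474 on the plus strand of chromosome 5, and Edn1 (ENSMUSG00000021367) spans 42301476 to 42307990 on the plus strand of chromosome 13. Promoters from RefSeq on GRCm38.p6, read as the 250 bases before the RefSeq start, were found for 5 of the 8 members, namely Klf2, Klf4, Edn1, Ednrb and Ace. Those of Klf2, Klf4 and Edn1 are printed because these 3 members went with immediate early genes across libraries, as described further on. Capitals mark the core that KLF proteins bind, CACCC or its reverse GGGTG, and the MEF2 core CTANNNNTAG, both searched on both strands, and each sequence runs 5′ to 3′ on the gene's strand.
Klf2 (chr8:72318812-72319061, plus strand): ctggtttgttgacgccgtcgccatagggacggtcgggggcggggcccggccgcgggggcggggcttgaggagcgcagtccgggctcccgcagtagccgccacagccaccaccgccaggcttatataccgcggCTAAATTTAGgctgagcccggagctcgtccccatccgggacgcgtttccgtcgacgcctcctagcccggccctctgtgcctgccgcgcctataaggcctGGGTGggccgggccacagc
Klf4 (chr4:55532476-55532725, minus strand): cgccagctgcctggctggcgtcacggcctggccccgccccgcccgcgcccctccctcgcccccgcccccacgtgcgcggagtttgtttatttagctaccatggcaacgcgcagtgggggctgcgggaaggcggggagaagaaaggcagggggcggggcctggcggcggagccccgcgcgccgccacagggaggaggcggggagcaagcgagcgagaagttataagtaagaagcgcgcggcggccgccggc
Edn1 (chr13:42301226-42301475, plus strand): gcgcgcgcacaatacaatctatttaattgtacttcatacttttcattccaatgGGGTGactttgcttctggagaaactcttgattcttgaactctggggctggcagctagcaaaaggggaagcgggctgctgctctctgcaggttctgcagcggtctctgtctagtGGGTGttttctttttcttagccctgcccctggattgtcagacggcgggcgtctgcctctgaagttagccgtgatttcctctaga
Within its 250 bases the Klf2 promoter held 1 match to the MEF2 core, found in 3.20% of the 32851 promoters in the table, and 1 match to the KLF core, found in 52.0% of them. The RefSeq window of Klf2 ends at 72319061, past the GENCODE start at 72319033, and its KLF core lies in that overlap. In Edn1 the KLF core matched 2 times, and 21.1% of promoters held it at least that often. Klf4 held neither core in this window. It held 4 matches to the GC box GGGCGG or CCGCCC, which Sp and KLF proteins bind, and Klf2 held 2, while 32.7% of promoters held at least 1 and Edn1 had none. The GC boxes are not capitalised, and no GC box overlapped a KLF core in these windows. GC content was 71.2% in Klf2, 74% in Klf4 and 50.4% in Edn1, against a median of 52.4% over all promoters. The AP-1 core TGANTCA, found in 6.75% of promoters, was in none of these 3 windows. These matches describe the sequences and do not show binding.

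In the 21 libraries TPM summed to 999999.2 to 1000000.6 and the number of reads behind it is unknown, 12178 to 20526 genes stood above 0, and mitochondrially encoded genes made up 1.27% to 23.0% of the sum. Pecam1, which encodes CD31, had a median of 1235 TPM, and 3 libraries low in Pecam1, under a limit of 618 TPM set from this median, were WT replicate 1 of experiment 2 at 461 TPM, KO replicate 2 of experiment 4 at 242 TPM and, at 95.04 TPM, WT replicate 2 of experiment 4. Over the 15 endothelial markers no library was at 0 for any marker. Of the 11 T, NK and B cell markers 9 had a median of 0 TPM, among them Cd3e, at 0 in 15 libraries. Lck of the same list was at 0 in 1 library and had a median of 14.7 TPM. Of the 10 tumour epithelial markers 8 had a median of 0 TPM, among them Epcam, at 0 in 14 libraries. Krt8 of that list was at 0 in 2 libraries and reached 269 TPM. KO columns headed replicate 3 of experiment 2 occurred 2 times, called 3a and 3b here, and 3b may belong to experiment 4. Shb was lower in KO, with 22.8 ± 16.6 TPM (SD, n = 10) against 37.3 ± 18.1 TPM in WT (SD, n = 11; exact two-sided permutation p = 0.0223, limma adjusted p = 0.820). By experiment its log2 difference, KO minus WT, was 0.29, -1.59, -0.061 and -1.85 in experiments 1 to 4, so the libraries labelled KO stood above WT in Shb in experiment 1 and near WT in experiment 3. Which part of Shb is floxed is not given in the sources used here, and reads from the rest of the gene would still count.

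All 8 members were well expressed in the sorted cells, and none was at 0 in any library. S1pr1, the receptor through which sphingosine 1-phosphate in plasma tightens endothelial junctions, had the highest median at 410 TPM. Klf2 followed with a median of 268 TPM, Nos3, the endothelial nitric oxide synthase, with 216 TPM and Klf4 with 145 TPM. Thbd, thrombomodulin, which turns thrombin into an activator of protein C, had a median of 136 TPM. Ace, the angiotensin-converting enzyme, had a median of 113 TPM, and Ednrb, the endothelin B receptor, had 108 TPM. Edn1, the precursor of the vasoconstrictor endothelin 1, was lowest at 33.2 TPM. The receptor Ednrb exceeded the ligand Edn1 in 21 of 21 libraries. At the other end S1pr1 exceeded Klf2 in 18 of 21 libraries and Klf2 exceeded Nos3 in 19 of 21. Nos3 exceeded Klf4 in 15, Klf4 exceeded Thbd in 15, Thbd exceeded Ace in 14 and Ace exceeded Ednrb in 11 of 21 libraries. Between every pair of neighbours except Ednrb and Edn1 the means differed by less than the larger SD over libraries. Ednrb averaged 105 ± 57.0 TPM and Edn1 35.8 ± 20.9 TPM (SD, n = 21).

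The question put by the design is whether deletion of Shb in the endothelium changes transcripts of the tumour endothelium. The pooled tests compare libraries by genotype label, and Shb itself was not lower in KO in experiment 1 and was near WT in experiment 3. None of the 8 members passed the test between KO and WT in limma with an experiment term, at a Benjamini-Hochberg adjusted p under 0.05 over 13503 genes, where 0.00741% of all genes tested were called. None had an unadjusted p under 0.05 either, a level that 5.88% of all genes reached, and exact two-sided permutation tests of genotype labels within experiments gave p from 0.443 to 0.980. On the log2(TPM + 1) scale the median difference over members was 0.050, against -0.11 over all genes tested. The log2(TPM + 1) scale understates changes of low genes. Some samples share a tumour and the labels do not say which, so the p-values in part measure spread between samples of the same tumour.

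The KLF factors came first in the pathway and had the narrowest intervals. Klf2 ran from 96.3 over a median of 268 to 356 TPM in WT (243 ± 79.4 TPM, mean and SD, n = 11) and from 111 over 277 to 386 TPM in KO (272 ± 84.0 TPM, n = 10). The genotypes overlapped almost over their whole range, with the lowest library a WT and the highest a KO. Klf2 differed by 0.13 on the log2 scale (SE 0.23, 95% interval -0.35 to 0.61; limma adjusted p = 0.966). For Klf4 the WT libraries ran from 30.9 over 161 to 241 TPM (137 ± 69.3 TPM, n = 11) and the KO libraries from 37.3 over 142 to 214 TPM (141 ± 53.2 TPM, n = 10). Here too the groups overlapped, and WT held both the lowest and the highest value. The log2 difference of Klf4 was 0.089 (SE 0.31, 95% interval -0.55 to 0.73; limma adjusted p = 0.982).

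Among the vasoactive enzymes and the anticoagulant receptor, Nos3 had the largest fitted difference of the 8 members. Without WT replicate 2 of experiment 4 it was 0.11 on the log2 scale, and Thbd (-0.38), Ace (-0.32), Ednrb (-0.32) and Edn1 (-0.20) were larger in size. The difference of Nos3 was 0.55 without KO replicate 2 of experiment 4 and 0.21 without all 3 libraries low in Pecam1. Relative to the endothelial markers Ednrb (-0.27), Thbd (-0.25) and Ace (-0.22) were larger in size than Nos3 (0.18). Nos3 ran from 11.6 over 214 to 316 TPM in WT (179 ± 89.6 TPM, n = 11) and from 32.7 over 260 to 324 TPM in KO (220 ± 92.4 TPM, n = 10). The groups overlapped, and the lowest library of each came from experiment 4. Its log2 difference was 0.35 (SE 0.39, 95% interval -0.45 to 1.15; limma adjusted p = 0.922). Thbd ran from 7.67 over 140 to 230 TPM in WT (131 ± 66.8 TPM, n = 11) and from 33.3 over 114 to 193 TPM in KO (113 ± 57.0 TPM, n = 10). The KO values lay inside the WT range. For Thbd the log2 difference was -0.084 (SE 0.43, 95% interval -0.97 to 0.80; limma adjusted p = 0.988). Ace ran from 8.20 over 115 to 302 TPM in WT (121 ± 78.7 TPM, n = 11) and from 21.6 over 104 to 189 TPM in KO (105 ± 59.1 TPM, n = 10). Again the KO values lay inside the WT range, whose top was WT replicate 1 of experiment 3. Ace differed by -0.053 on the log2 scale (SE 0.43, 95% interval -0.95 to 0.85; limma adjusted p = 0.993).

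The endothelin pair and the S1P receptor differed by no more than their error either. Edn1 ran from 3.70 over 33.2 to 60.9 TPM in WT (34.8 ± 16.4 TPM, n = 11) and from 5.17 over 33.7 to 87.7 TPM in KO (36.8 ± 25.9 TPM, n = 10). KO libraries spread wider upwards, the 2 highest coming from experiment 1, and the groups overlapped. The log2 difference of Edn1 was 0.010 (SE 0.39, 95% interval -0.79 to 0.81; limma adjusted p = 0.998). Ednrb ran from 10.4 over 108 to 245 TPM in WT (110 ± 60.8 TPM, n = 11) and from 23.5 over 101 to 185 TPM in KO (99.6 ± 55.2 TPM, n = 10). WT held the lowest and the highest library of Ednrb. Its log2 difference was -0.10 (SE 0.37, 95% interval -0.87 to 0.67; limma adjusted p = 0.982). S1pr1 ran from 26.1 over 410 to 653 TPM in WT (371 ± 171 TPM, n = 11) and from 103 over 459 to 625.2 TPM in KO (410 ± 171 TPM, n = 10). The KO values lay inside the WT range here as well. S1pr1 differed by 0.27 on the log2 scale (SE 0.39, 95% interval -0.55 to 1.09; limma adjusted p = 0.945). As ratios of KO to WT the 95% intervals were narrowest for Klf2, at 0.785 to 1.53 times the WT level. Their outermost bounds over the 8 members were 0.511 for Thbd and 2.21 for Nos3.

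**Figure D1:**
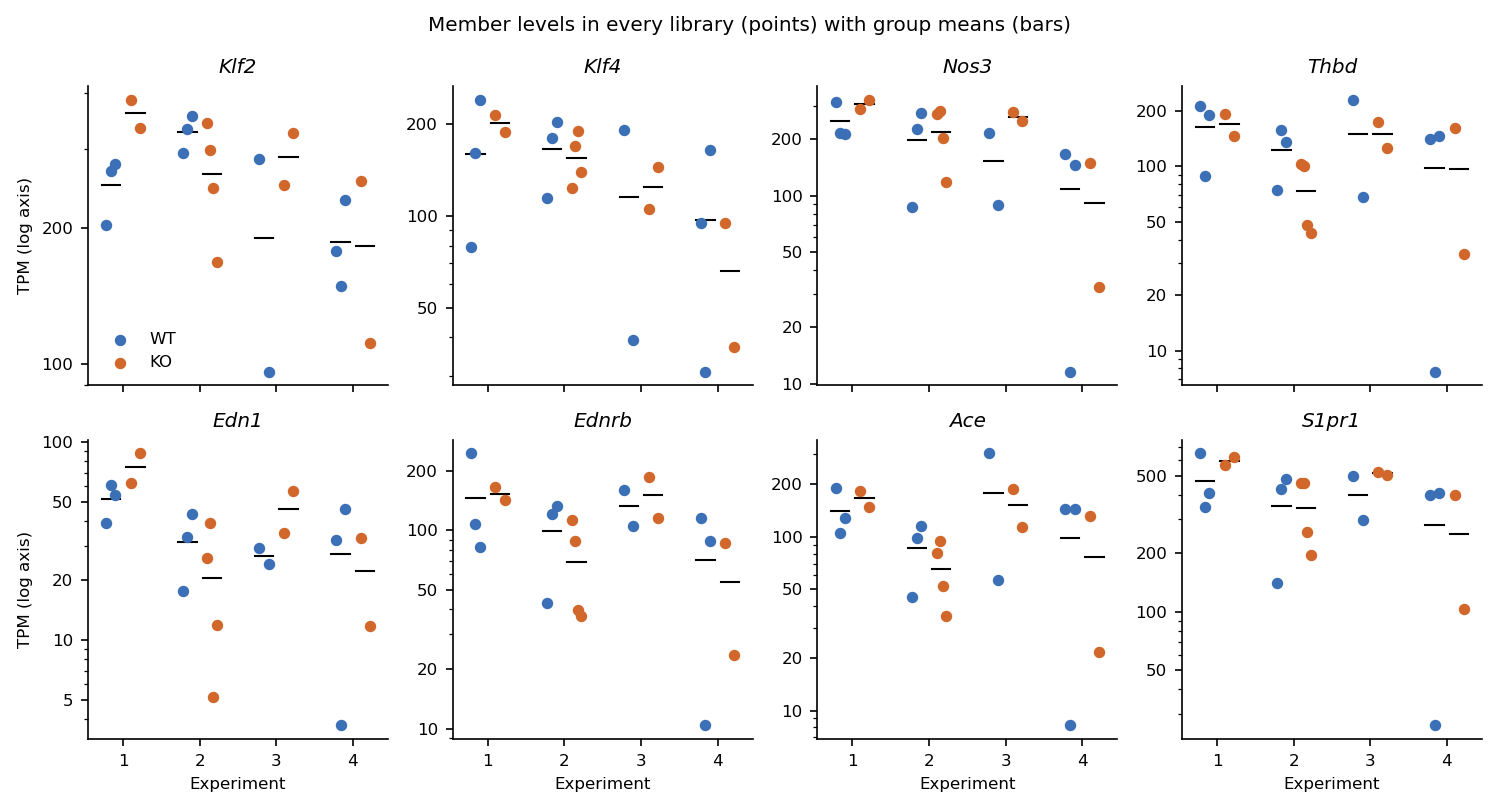
TPM of each of the 8 genes (vertical log axis) in every library, by experiment (horizontal axis), with WT in blue, KO in orange and black bars at the mean of each genotype in an experiment. The genotypes overlap over the 21 libraries for every gene, and WT replicate 2 of experiment 4 is the lowest point for all except Klf2.

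Markers of leukocytes, fibroblasts and pericytes had lower values in KO in the same libraries, and none passed the adjusted test. The 9 tested pan-leukocyte markers of 10 all had lower values in KO. Of these, 7 had an unadjusted p below 0.05 in limma, a level that 5.88% of all genes reached, and none passed after adjustment. The summed TPM of the leukocyte markers ran from 110 over a median of 208 to 2927 in WT. In KO it ran from 93.2 over 147 to 288. All 11 macrophage and monocyte markers had lower values in KO, 7 with unadjusted p below 0.05. Their sums ran from 59.3 over 244 to 5190 TPM in WT and from 31.0 over 65.2 to 222 TPM in KO. The 5 tested fibroblast markers of 8 were lower too, 3 of them at an unadjusted p under 0.05. The fibroblast sums ran from 38.2 over 87.1 to 696 TPM in WT and from 14.8 over 38.1 to 168 TPM in KO. Of the 10 pericyte and smooth muscle markers 8 were tested and lower, 3 at an unadjusted p under 0.05. Here the sums ran from 47.4 over 98.8 to 251 TPM in WT and from 15.0 over 62.8 to 189 TPM in KO. Of the 15 endothelial markers 14 were higher in KO and none was called. The endothelial sums ran from 622 over 8344 to 12946 TPM in WT and from 1811 over 10209 to 12071 TPM in KO. The median log2 difference of the endothelial markers was 0.19. Of the 5 tested platelet and erythroid markers 3 were higher in KO, with a median log2 difference of 0.29, and of the 5 lymphatic endothelial markers 1 was higher and 4 were lower, again with none called. Of the 10 pan-leukocyte markers 2 had a median of 0 TPM, among them Tyrobp, at 0 in 11 libraries. Lcp1 of the same list was at 0 in no library and had a median of 113 TPM. No macrophage and monocyte marker had a median of 0 TPM. C1qa was at 0 in 3 libraries, and Lyz2 and Cd68 were at 0 in none. The part of other cell types in the members' levels was tested only by the adjustments given next.

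Set against the endothelial markers of the same library, no member passed the test for genotype. On log2(TPM + 1) minus the mean of the 15 endothelial markers, limma called none of the 8 after adjustment, against 0.00741% of all genes, and none at an unadjusted p under 0.05, against 2.56%. The relative differences ran from -0.27 for Ednrb (SE 0.26) to 0.18 for Nos3 (SE 0.23), with a median of -0.12, against -0.28 over all genes tested on this scale. Those of Klf2, Klf4 and Edn1 turned negative on this scale, at -0.039, -0.081 and -0.16. With the leukocyte and fibroblast marker means as covariates all 8 log2 differences were below 0, and the median over all genes was -0.25. Klf4 then stood at -0.59 (SE 0.23) with an unadjusted p of 0.0189 in limma and an adjusted p of 0.763, and no member was called; 626 of the 13503 genes had an unadjusted p under 0.05 in this fit.

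Within single experiments, taken by column header, the direction varied for most members. Nos3 and S1pr1 were higher in KO in all 4 experiments, with log2 differences of Nos3 of 0.32, 0.23, 0.92 and 0.072 in experiments 1 to 4. Those of S1pr1 were 0.40, 0.067, 0.42 and 0.31. In experiment 4 these directions rested on WT replicate 2, which was low in Pecam1. The other 2 WT libraries stood at 146 and 167 TPM of Nos3, against 32.7 and 149 TPM in KO. KO replicate 2, at 32.7 TPM, was also low in Pecam1. Without WT replicate 2 of experiment 4 the fitted log2 difference over all experiments was 0.11 for Nos3 and 0.0041 for S1pr1. Without KO replicate 2 of experiment 4 that of Nos3 was 0.55, and without all 3 libraries low in Pecam1 it was 0.21. Klf2 differed by 0.53 and 0.78 in experiments 1 and 3 and by -0.35 and -0.12 in experiments 2 and 4. Klf4 had the same signs, 0.46 and 0.50 in experiments 1 and 3 and -0.073 and -0.40 in experiments 2 and 4. Shb itself differed by 0.29 and -0.061 in experiments 1 and 3 and by -1.59 and -1.85 in experiments 2 and 4. Whether these differences go together was not tested. In experiment 4 the KO replicate low in Pecam1 had 111 TPM of Klf2 and the other had 254 TPM, above all 3 WT libraries. The genotype by experiment interaction was called by limma for 0% of all genes and for no member. At an unadjusted p under 0.05 it took 3.84% of all genes and no member, the lowest member p being 0.277 for Klf2. For Thbd (-0.77), Edn1 (-0.84), Ednrb (-0.51) and Ace (-0.39) the lowest difference was that of experiment 2, which holds KO replicates 3a and 3b. Without these 2 libraries the fitted log2 differences of Thbd, Edn1, Ednrb and Ace were 0.14, 0.35, 0.12 and 0.12.

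**Figure D2:**
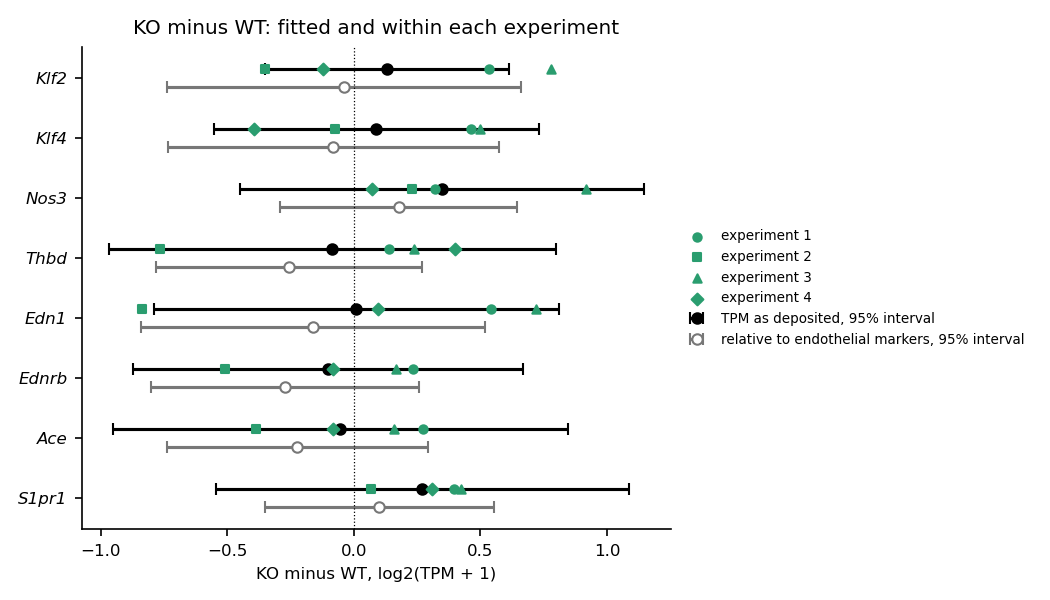
KO minus WT on the log2(TPM + 1) scale (horizontal axis) for each gene, as fitted by limma on TPM (black) and relative to the endothelial markers (grey, open) with 95% intervals, and as the plain difference of means in each experiment (green). Every interval includes 0, and only Nos3 and S1pr1 have all 4 experiments on the same side.

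Between experiments the levels of 1 member differed. The limma F test over experiments called Nos3 (adjusted p = 0.0421), 1 of 8 members, where it called 29.1% of all genes tested. Nos3 averaged 272 ± 53.3 TPM in experiment 1 (SD, n = 5), 209 ± 78.6 TPM in experiment 2 (n = 7), 208 ± 83.4 TPM in experiment 3 (n = 4) and 101 ± 73.2 TPM in experiment 4 (n = 5). Experiment 4 was lowest, and its highest library, at 167 TPM, stood below the lowest of experiment 1, at 214 TPM. The libraries of experiments 2 and 3 overlapped with both. Relative to the endothelial markers no member was called between experiments, against 2.51% of all genes, and the limma adjusted p of Nos3 was 0.539. The 3 libraries low in Pecam1 bear on this: without them the adjusted p of Nos3 was 0.295, and without WT replicate 2 or KO replicate 2 of experiment 4 alone it was 0.123 and 0.165. Over the 21 fits that each left out 1 library the call held in 7. It was lost without each library of experiment 1, at adjusted p from 0.0513 to 0.0672. The same happened without KO replicates 1 and 2 or WT replicates 2 and 3 of experiment 2, KO replicates 1 and 2 or WT replicate 1 of experiment 3, and the named 2 of experiment 4. Every other member except Ace also averaged highest in experiment 1, among them Klf2 at 294 ± 69.2 TPM, Klf4 at 177 ± 62.3 TPM and S1pr1 at 521 ± 135 TPM (SD, n = 5), and their differences between experiments did not pass the test. Ace averaged highest in experiment 3, at 165 ± 106 TPM (SD, n = 4).

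Across libraries the members differed in how closely they followed the endothelial markers. In bulk RNA, fewer endothelial cells and less RNA per endothelial cell cannot be told apart, and the relative scale takes out whatever the 15 markers share. The SD of S1pr1 over 21 libraries was 1.07 on the log2 scale and 0.17 relative to the markers. That of Nos3 went from 1.16 to 0.29, Thbd from 1.12 to 0.39, Ednrb from 1.06 to 0.40 and Ace from 1.17 to 0.42. These 5 genes thus went up and down across libraries with Pecam1, Cdh5 and the other markers. Edn1 went from 1.08 to 0.65, and Klf4 from 0.85 to 0.71. Klf2 alone had a larger SD on the relative scale, 0.81 against 0.54. Without the 3 libraries low in Pecam1 that order was different: Klf2 went from 0.48 to 0.38, Klf4 stayed at 0.64 and 0.63, and S1pr1 went from 0.44 to 0.16. Klf2 then stood below Thbd (0.40), Ednrb (0.42) and Ace (0.45) on the relative scale, so its place apart from these rests on the 3 libraries.

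WT replicate 2 of experiment 4 stood apart from the rest. In it the endothelial marker mean was 4.96 on the log2 scale, the lowest of all libraries, with Pecam1 at 95.04 TPM. Nos3 stood at 11.6, Thbd at 7.67, Ace at 8.20, Ednrb at 10.4, Edn1 at 3.70 and S1pr1 at 26.1 TPM, each the lowest of its gene. Klf4, at 30.9 TPM, was also at its lowest, and Klf2 stood at 149 TPM in this library, above 2 others. Krt8, a keratin of epithelial and carcinoma cells, reached 269 TPM there, its highest value, and the leukocyte marker mean of 5.42 exceeded the endothelial mean. Klf2 is also known to be expressed in lymphocytes and monocytes, and its source in this library was not tested. The highest leukocyte marker mean, 7.79, was that of WT replicate 2 of experiment 3, where Klf2 was at its lowest of all libraries, 96.3 TPM, and Klf4 was at 39.2 TPM.

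**Figure D3:**
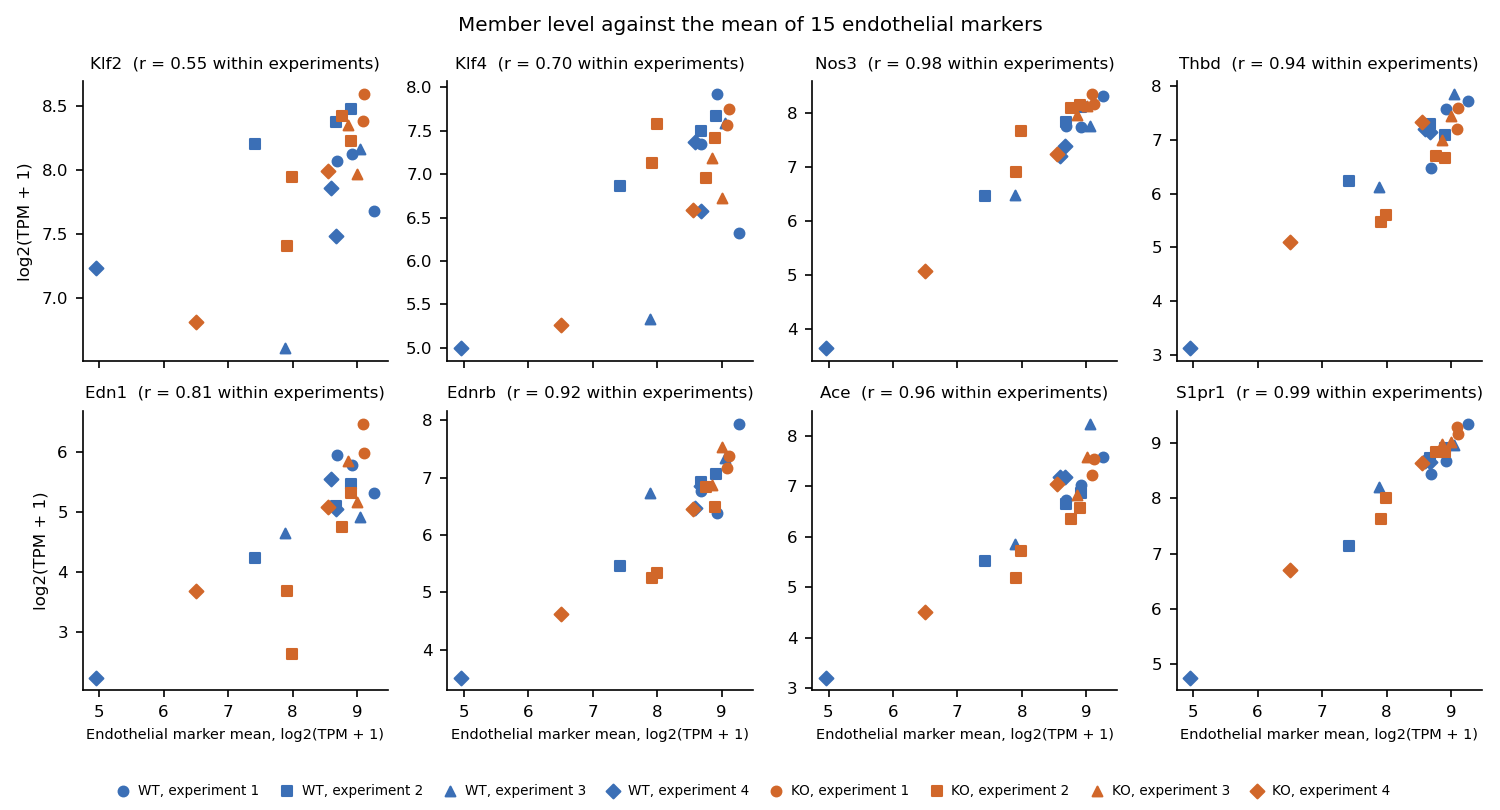
Log2(TPM + 1) of each gene (vertical axis) against the mean log2(TPM + 1) of 15 endothelial markers in the same library (horizontal axis), with WT in blue, KO in orange and a symbol for each experiment; r is taken after subtracting experiment means. S1pr1 and Nos3 lie close to a line, while Klf2 and Klf4 scatter around it.

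Correlations over the 21 libraries, after subtracting each experiment's mean, put numbers on this. A total of 16 were computed, each member against the endothelial mean and against the mean of 21 immediate early genes, with two-sided p from 100000 permutations within experiments and Benjamini-Hochberg adjustment over the 16. With the endothelial mean, S1pr1 had r = 0.986 (adjusted permutation p = 8e-05) and rho = 0.955 (0.00016), and Nos3 had r = 0.980 (8e-05) and rho = 0.936 (0.000267). The unadjusted p of both r values, 1e-05, is the smallest these permutations can give. Without the 2 libraries farthest from the median, WT replicate 2 and KO replicate 2 of experiment 4, r was 0.974 for S1pr1 and 0.962 for Nos3. For Ace r was 0.959, for Thbd 0.939, for Ednrb 0.918 and for Edn1 0.806, with rho of 0.955, 0.884, 0.929 and 0.817 and adjusted permutation p of r up to 0.00299. Without the same 2 libraries these r values were 0.928, 0.875, 0.863 and 0.687. Klf4 followed the markers less closely, with r = 0.698 (adjusted permutation p = 0.00752) and rho = 0.626 (0.0121), and r was 0.578 without the 2 farthest libraries and 0.397 without the 3 low in Pecam1. Klf2 had r = 0.550 (0.0158) and rho = 0.643 (0.00562), and r was 0.582 and 0.745 without the same sets. Without the 3 libraries low in Pecam1 the r of Klf2 was above that of Edn1, 0.650, and below that of Ednrb, 0.796. Single experiments hold 4 to 7 libraries, and no r was taken within them.

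Immediate early genes, such as Fos, Jun, Egr1 and Dusp1, are switched on within minutes of a stimulus, and KLF2 and KLF4 are themselves known to respond fast. Klf4 followed their mean with r = 0.818 (adjusted permutation p = 0.00048) and rho = 0.816 (0.000389), and Klf2 with r = 0.682 (0.00206) and rho = 0.761 (0.00122). Edn1, which responds to many acute stimuli in endothelium, had r = 0.619 (0.00048) and rho = 0.714 (0.000267). Without the 2 libraries farthest from the median, WT replicate 1 of experiment 1 and WT replicate 3 of experiment 4, r was 0.767 for Klf4, 0.706 for Klf2 and 0.626 for Edn1. Without the 3 libraries low in Pecam1, r was 0.795, 0.642 and 0.513. These 3 are the members whose promoters are printed above, and neither the MEF2 core nor the KLF core was in all of them. For Nos3, Thbd, Ace, S1pr1 and Ednrb r was 0.428, 0.410, 0.402, 0.401 and 0.209, with rho of 0.419, 0.479, 0.479, 0.456 and 0.348, and none passed after adjustment (adjusted permutation p of r from 0.0897 to 0.420). Without the 2 farthest libraries r was 0.545 for Nos3, 0.549 for Thbd, 0.511 for Ace, 0.525 for S1pr1 and 0.386 for Ednrb. Without the 3 low in Pecam1 their r values were 0.168, 0.136, 0.104, 0.107 and -0.211, in the same order. Their gap to Edn1 was thus smaller without the 2 farthest libraries and larger without the 3 low in Pecam1. Whether the correlations of the 2 sets of members differ was not tested.

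WT replicate 1 of experiment 1 had the highest endothelial marker mean, 9.27, and the lowest immediate early mean, 5.52. In this library Klf4 stood at 79.1 TPM and Klf2 at 204 TPM, each the lowest of experiment 1. Ednrb, at 245 TPM, and S1pr1, at 653 TPM, were at their highest of all libraries, and Nos3 stood at 316 TPM. Relative to the endothelial markers Klf4 was at -2.94 and Klf2 at -1.59 there, each the lowest of all libraries. By genotype 18 of the 21 immediate early genes were higher in KO, with a median log2 difference of 0.19 and none called by limma (lowest adjusted p = 0.852). The part of the immediate early programme in the levels of Klf2 and Klf4 was not tested.

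**Figure D4:**
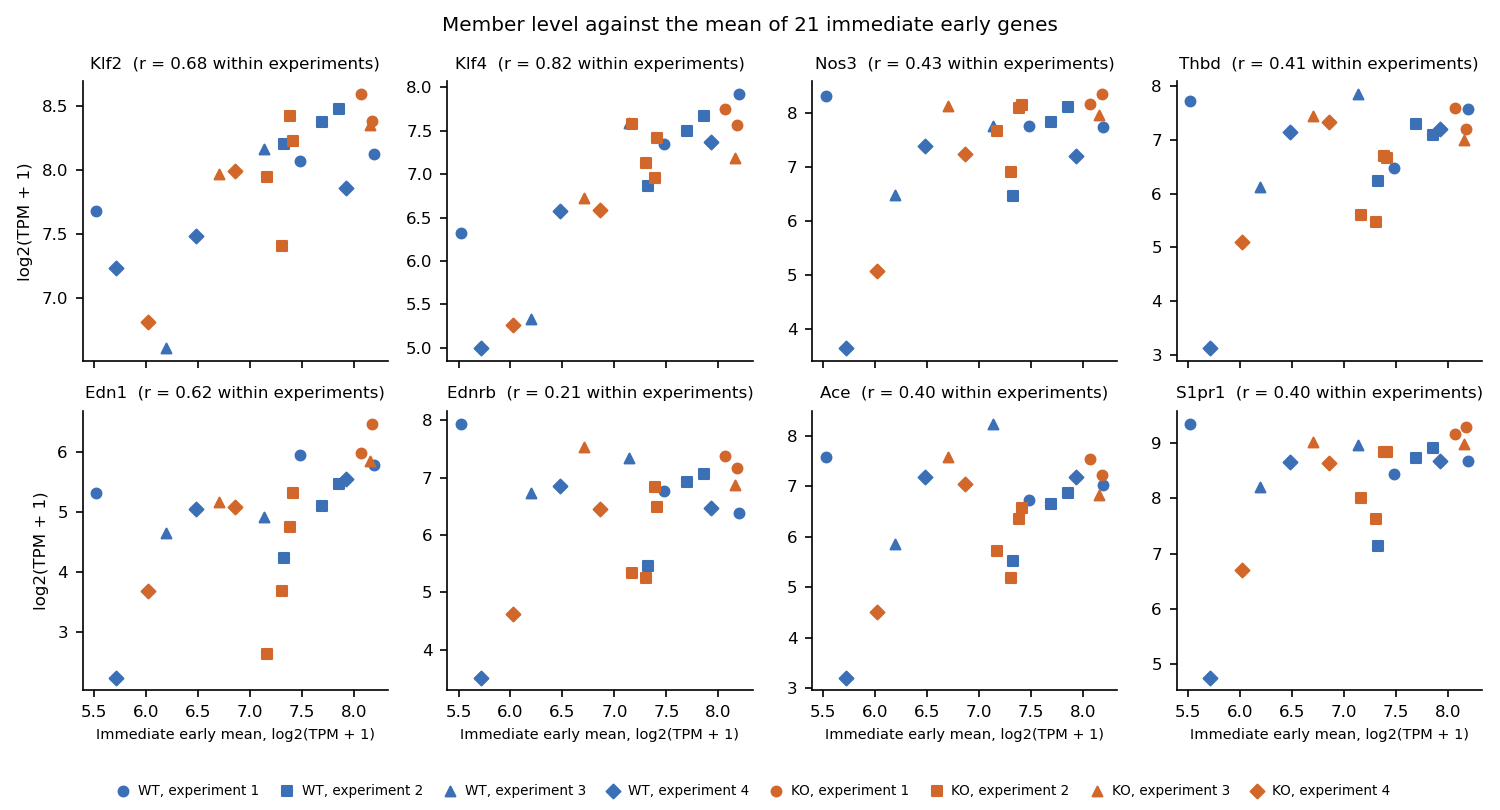
Log2(TPM + 1) of each gene (vertical axis) against the mean log2(TPM + 1) of 21 immediate early genes in the same library (horizontal axis), coloured by genotype with a symbol for each experiment; r is taken after subtracting experiment means. Klf4 follows the horizontal axis with r = 0.82, Klf2 with r = 0.68 and Ednrb with r = 0.21, and the WT library at the far left, at 5.52, is high in Ednrb and S1pr1 and low in Klf4.

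Among the members themselves, S1pr1 and Nos3 were most alike (r = 0.975 over 21 libraries after subtracting experiment means), followed by Thbd and Ace (r = 0.963). Klf2 and Klf4 had r = 0.756 with each other, and each had a lower r with every other member. Nos3, a gene that both KLF factors raise, had r = 0.599 with Klf2 and 0.703 with Klf4. Edn1 had r = 0.596 with Klf2 and 0.585 with Klf4, both above 0, although KLF2 is known to hold Edn1 down. These r values were taken on levels and not on the relative scale. How far they come from what the endothelial markers share was not tested.

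The 2 genes most like each member were sought by r among 8821 genes, and these r values are a description of genes picked for being high. For Klf2 they were Lama5, a laminin chain of the endothelial basement membrane (r = 0.844, rho = 0.785 over 21 libraries), and Dusp1, an immediate early phosphatase (r = 0.840, rho = 0.891). For Klf4 they were Nr4a1, an immediate early nuclear receptor (r = 0.917, rho = 0.857), and the transcription factor Ebf1 (r = 0.912, rho = 0.931). Dusp1 and Nr4a1 belong to the immediate early list. For S1pr1 they were the endothelial receptor Adgrf5 (r = 0.992) and Cdh5, VE-cadherin (r = 0.991), and for Nos3 they were Kif26a (r = 0.982) and Crim1 (r = 0.981). Ednrb went with Cd93 (r = 0.982) and the water channel Aqp1 (r = 0.972), and Ace with the efflux pump Abcb1a (r = 0.979) and the receptor Tie1 (r = 0.976). Thbd went with the apelin receptor Aplnr (r = 0.981) and Nrp1 (r = 0.972), and Edn1 with Sox4 (r = 0.949) and the angiogenesis inhibitor Vash1 (r = 0.921). The list for Klf2 had the lowest r values, and the genes most like S1pr1 the highest.

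Genes around the members in their pathways did not pass the test for genotype either. Of 122 genes in 9 pathway lists 90 were tested, limma called none, and 4 had an unadjusted p under 0.05, all of them lower in KO, against 5.88% of all genes. These 4 were Klf16, Nosip, Anpep and Sgpp1. The median log2 difference of the 90 was -0.021, against -0.11 over all genes. By list it was 0.19 for the immediate early genes and 0.057 for flow sensing and ERK5-MEF2. In every other list it was below that of all genes, from -0.15 for the KLF family to -0.60 for prostanoid synthesis. In the KLF family 11 of 15 other genes were tested, 3 higher and 8 lower in KO. Klf16 averaged 29.7 ± 14.1 TPM in WT and 23.0 ± 14.0 TPM in KO (SD, n = 11 and 10), a log2 difference of -0.65 (SE 0.30 and an adjusted p of 0.820 in limma). Klf6, at 182 ± 53.0 TPM in WT and 180 ± 67.6 TPM in KO, and Klf3, at 120 ± 42.8 and 162 ± 59.0 TPM, were the most abundant of these and did not pass the test (limma adjusted p = 0.936 and 0.875). Klf1, Klf14, Klf15 and Klf17 had a median of 0 TPM.

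Upstream of the KLF genes all 20 genes for flow sensing and the ERK5-MEF2 pathway were tested, with 13 higher and 7 lower in KO and none called. Mapk7, which encodes ERK5, averaged 35.8 ± 15.7 TPM in WT and 31.7 ± 16.6 TPM in KO, and the log2 difference was -0.33 with SE 0.24 (adjusted p = 0.862 in limma). Hdac5, a repressor of MEF2, averaged 91.3 ± 50.7 and 74.2 ± 37.4 TPM, which is -0.39 on the log2 scale with SE 0.30 (adjusted p = 0.871 in limma). Around Nos3, 14 of 16 listed genes of the nitric oxide pathway were in the table and 10 were tested, 2 higher and 8 lower in KO. Nosip, which binds the synthase and draws it from the membrane, averaged 49.5 ± 13.1 TPM in WT and 36.2 ± 24.9 TPM in KO, a log2 difference of -0.55 (SE 0.22; unadjusted p = 0.0222, limma adjusted p = 0.820). Cav1, the caveolar protein that holds the synthase inactive, was abundant in both genotypes at 701 ± 321 and 716 ± 308 TPM.

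Around Edn1 and Ednrb, 3 of 7 genes of the endothelin system were tested. Ece1, the enzyme that releases active endothelin from its precursor, averaged 630 ± 300.1 TPM in WT and 596 ± 276 TPM in KO, and Ednra, the endothelin A receptor of smooth muscle, had a median of 1.27 TPM. Edn2 and Edn3 had a median of 0 TPM, so Edn1 was the endothelin ligand seen in most libraries. Around Ace, 4 of 12 genes of the renin-angiotensin and kinin system were tested and all were lower in KO. Anpep, an aminopeptidase also found on myeloid cells and pericytes, averaged 20.2 ± 38.1 TPM in WT and 4.43 ± 3.08 TPM in KO (log2 difference -1.14, SE 0.51; unadjusted p = 0.0350, limma adjusted p = 0.820). Agt, Ren1, Agtr1b, Agtr2 and Mas1 had a median of 0 TPM. Bdkrb2, the receptor for bradykinin, which ACE breaks down, had a median of 14.1 TPM.

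Around Thbd, 10 of 12 genes of the protein C and coagulation list were tested, 2 higher and 8 lower in KO. Vwf, which tethers platelets to the vessel wall, averaged 412 ± 197 TPM in WT and 495 ± 223 TPM in KO and was not called (limma adjusted p = 0.941). Around S1pr1, 11 of 12 listed genes of the sphingosine 1-phosphate system were in the table and 8 were tested, 3 higher and 5 lower in KO. Spns2, the transporter that releases S1P from endothelium, averaged 130 ± 60.0 TPM in WT and 137 ± 58.6 TPM in KO. Sgpp1, a phosphatase that removes S1P, averaged 7.43 ± 6.87 and 2.72 ± 1.87 TPM, a log2 difference of -1.003 (SE 0.44; unadjusted p = 0.0321, limma adjusted p = 0.820). In the prostanoid list 3 of 7 genes were tested, 1 higher and 2 lower in KO, and Ptgs1 averaged 32.7 ± 19.2 and 31.0 ± 12.9 TPM. Between experiments 27 of the 90 tested genes were called, against 29.1% of all genes.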

How the data were processed

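RNA of CD31+ tumour cells was sequenced as stranded, rRNA-depleted total RNA from 30 ng per library and read as 150-base pairs (from the protocols, per the labels). The authors deposited TPM values, with decimal commas, for 45706 genes in 21 libraries. GRCm38 is the build that the submitters' processing notes name; which aligner and counter were used, and how strand was handled, is not given in the sources used here. Because TPM keeps no depth, no counting interval is given, and abundant transcripts in a library lower the TPM of all its other genes.

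Columns were assigned by header. The 2 that share the header of KO replicate 3 of experiment 2 (3a and 3b) hold different values and were kept there. Of these, 3b carries 6 decimals, like experiment 4, which has no column for KO replicate 3 although a sample title names it. Gene names in date form (27) were restored from their identifiers. The 13503 genes reaching 1 TPM in 10 or more libraries were tested as log2(TPM + 1) in limma 3.58.1 (R 4.3.3; statmod 1.5.0) with a trended, robust prior and an experiment term, with Benjamini-Hochberg adjustment over all genes and a threshold of 0.05. Two-sided exact permutation tests ran over the 21000 arrangements of genotype within experiments. The relative scale subtracts the library mean of 15 endothelial markers. Correlations used Python 3.11.15 and numpy 2.4.6.

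Over 10 same-numbered pairs the correlations of deviations ran from -0.20 to 0.36. With 2 to 4 libraries per genotype and experiment these cannot tell whether replicate numbers pair samples, and the labels do not say. Which samples came from the same tumour is not labelled. Members, gene lists and tests were chosen with earlier results of these data known. Genes named are the members and Shb, up to 3 per pathway list with the smallest p and up to 2 with the highest mean, the 2 genes most like each member (mean log2(TPM + 1) of at least 3, predicted gene models left out), and markers from the cell type lists. Genes listed as having a median of 0 TPM were named after their values were seen. Of the 45706 gene identifiers 45143 were found in GENCODE. Alternatives covered pseudocounts, filters, scalings, covariates, the variance prior and left-out libraries and experiments.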

Additional observations from a re-analysis of the deposited data

Results flagged for a closer look

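The level of S1pr1 relative to the endothelial markers, on the log2 scale, was -0.29 in KO replicate 3b of experiment 2, far below the other 9 KO libraries. The gap to the nearest of them was 0.475 of the range over the 10 KO libraries, past the limit of Dixon's test. It was the 1 such value in 32 groups of libraries tested, and chance gives about 1 in 20, so this single flag is no more than chance gives. The value was not unusual beside WT, where replicate 1 of experiment 2 stood at -0.28. WT replicates 2 and 3 of experiment 1 both stood at -0.24, and the other WT libraries were above these. The column of KO replicate 3b is that of uncertain experiment, and S1pr1 stood at 197 TPM in it.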

How the results depend on the processing

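No member was called between KO and WT in any of the 42 alternatives, the exact permutation tests included, and Nos3 and S1pr1 kept their direction in all except the fit with leukocyte and fibroblast covariates. That fit turned Klf2 to -0.25, Klf4 to -0.59, Nos3 to -0.46, Edn1 to -0.60 and S1pr1 to -0.40 on the log2 scale. The endothelial-relative scale gave -0.039 for Klf2, -0.081 for Klf4 and -0.16 for Edn1. A common median over all genes gave 0.023 for Thbd, 0.0059 for Ednrb and 0.055 for Ace, and Ace was 0.011 after quantile normalization and 0.0048 after rescaling. Edn1 was -0.073 with no experiment term. Without experiment 1, Klf4 was -0.026 and Edn1 -0.15; without experiment 2, Thbd was 0.26, Ednrb 0.10 and Ace 0.11; without experiment 3, Klf2 was -0.026, Klf4 -0.010 and Edn1 -0.16; and without experiment 4 Edn1 was -0.017. Without the libraries low in Pecam1 Edn1 was -0.087. Without KO replicates 3a and 3b Thbd was 0.14, Ednrb 0.12 and Ace 0.12. Leaving out 1 library at a time gave -0.022 to 0.25 for Klf2, -0.097 to 0.24 for Klf4, -0.38 to 0.049 for Thbd, -0.20 to 0.20 for Edn1, -0.32 to 0.044 for Ednrb, -0.32 to 0.16 for Ace, 0.11 to 0.55 for Nos3 and 0.0041 to 0.42 for S1pr1; the lowest of Nos3 and S1pr1 came without WT replicate 2 of experiment 4. The cause of these changes was not tested.

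A replicate block on the replicate number and experiment gave 0.11 for Thbd and 0.089 for Ace, with 0 members called. The pairing check gave 2 of 10 pairs over 0.1, both in experiment 4. Each genotype holds 2 to 4 libraries per experiment, too few for this check to tell whether replicate numbers pair the samples. The block took the genes called over the whole table from 1 to 0.

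Between experiments, where 1 member was called, the count was 0 with a pseudocount of 0.1, no filter, a common median, quantile normalization, rescaling, the endothelial-relative scale, a prior with no trend or robust setting, without experiment 1, 2 or 4, without libraries low in Pecam1 and with KO replicate 3a placed in experiment 4. It was 3 with the covariates and 2 without experiment 3 or with 3b placed in experiment 4, and 0 to 4 when 1 library was left out. Centring moved the median of all genes from -0.11 to -0.0063 on the log2 scale. Unadjusted calls over all genes went from 128 higher and 666 lower to 521 and 474 with it. Depth limits cannot be given for TPM.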
